A study of Mus musculus with 12 samples.

Results

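The receptors and binding proteins of the insulin-like growth factor (IGF) system described here are 9 mouse genes, taken by their symbols from the 32289 features counted in each library. They are the ligand Igf1, the receptors Igf1r and Insr, and the binding proteins Igfbp2, Igfbp3, Igfbp4, Igfbp5, Igfbp6 and Igfbp7. Superior mesenteric ganglia of 12 mice of the strain 129+Ter/SvJcl were measured by droplet RNA sequencing of single cells, with 1 ganglion and 1 library per mouse. 1 mouse was wild type (WT) and 3 weeks old, 10 mice were Th-MYCN+/- hemizygotes of that age, and 1 mouse was a Th-MYCN+/- hemizygote of 6 weeks. The transgene is human MYCN under the rat tyrosine hydroxylase promoter, which is used in sympathetic cells. The 10 hemizygotes of 3 weeks are called young transgenic mice here, with their replicate numbers 1 to 10. The study chose the 6-week-old mouse for its visible tumour, as a positive control.

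IGF1 is a secreted growth factor that acts through the type 1 IGF receptor, a tyrosine kinase, and more weakly through the related insulin receptor. Both receptors signal through adaptor proteins to the PI3K-AKT-mTOR and MAPK pathways, which drive growth and survival. In body fluids and tissue most IGF is held by binding proteins, which store it, carry it or keep it from its receptor, and IGF signalling has long been studied in neuroblastoma cells.

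The libraries held 1147772 unique molecular identifiers (UMIs) in the WT mouse, 4824039 in the 6-week-old mouse and 1444554 to 6388766 in the young transgenic mice, with a median of 3000078.5. After calling and filtering, 11941 cells were kept, of which 522 to 1758 were of each young transgenic mouse, 618 of the WT mouse and 945 of the 6-week-old mouse. Any pair of libraries shared at most 6 cell barcodes, with a median of 1 over 66 pairs, and 92 barcodes occurred in more than 1 library. Cells were grouped without the 9 genes and without the other IGF pathway genes, and the 15 clusters were named where their marker genes allowed it.

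In the young transgenic mice this gave 2747 neuroblast-like, 2223 Schwann-like, 2438 ganglion-like, 215 macrophage-like, 412 endothelial-like, 92 fibroblast-like, 122 myofibroblast-like and 35 NKT-like cells. A further 2094 cells stayed unnamed. Most of them belonged to a cluster of cells with a median of 490 UMIs that met 1 of 15 neuroblast markers. With log-normalized clustering, a cluster of 2089 cells with a median of 470 UMIs met 8 of 15 and took the neuroblast-like name. The unnamed cells of the young transgenic mice carried 16113 CPM of the neuroblast list, with 15 of 15 genes, and 9047.9 CPM of the ganglion list. The unnamed cluster held 20.1% of the cells of the young transgenic mice, 12.0% of those of the 6-week-old mouse and 2.27% of those of the WT mouse. Transcripts of the human MYCN transgene ran from 105 to 554 UMIs per 1000000 UMIs of the class (CPM) in neuroblast-like cells of the young transgenic mice, and stood at 353 CPM in those of the 6-week-old mouse. In ganglion-like cells they reached at most 9.24 CPM, and in the unnamed cells they ran from 28.3 to 416 CPM. No transgene UMI was counted in the WT mouse.

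Markers of other cell types were also counted, first in the young transgenic mice. The B cell list (Cd79a, Cd79b, Ms4a1 and Ighm) summed to 2197 CPM in macrophage-like cells with 4 of 4 genes detected, most of it Ighm. The erythroid list summed to 10453 CPM in endothelial-like cells, led by Hbb-bs, and was at 0 in those of the WT and the 6-week-old mouse. Of the fat list, Fabp4 gave 1372 CPM in myofibroblast-like and most of 1181 CPM in endothelial-like cells, while Plin1 was at 0 in both. In endothelial-like cells Fabp4 stood at 3602 CPM in the 6-week-old and 1672 CPM in the WT mouse, with Adipoq and Plin1 at 0. The chromaffin list stood at 399 CPM in ganglion-like and 381 CPM in neuroblast-like cells. Lists for adrenal cortex, kidney tubule and mesothelium reached at most 1.55, 2.93 and 0.151 CPM in any named class of the young transgenic mice. In the 6-week-old mouse single UMIs gave 40.5 CPM of the mesothelium list in fibroblast-like cells and 2.04 CPM of the adrenal cortex list in Schwann-like cells. The part that these other cells have in the values of the 9 genes was not tested.

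Mouse 2 of the young transgenic mice stood apart. Only 38.0% of its UMIs lay in kept cells, against 61.1% to 87.1% in the other libraries, and 1212 of the 1373 cells of the largest ganglion-like cluster came from it. Its 39 neuroblast-like cells held 29365 UMIs, with the Schwann list at 5551 CPM (13 of 14 genes, led by Dbi, S100b at 0) and the endothelial list at 1226 CPM (9 of 12 genes, led by Ly6c1, Cdh5, Plvap and Kdr at 0). In neuroblast-like cells of the other young transgenic mice the Schwann list ran from 171 CPM in mouse 8 to 642 CPM in mouse 3. The endothelial list ran there from 34.3 CPM in mouse 1 to 164 CPM in mouse 7. The 24 neuroblast-like cells of the WT mouse do not carry their name by markers, since the ganglion list summed to 26430 CPM in them, the neuroblast list to 3478 CPM, and Dlk1 was at 0. They are therefore not compared with the neuroblast-like cells of the other mice.

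In kept cells of all mice, 18961 UMIs were counted for Igfbp7, 2483 for Igfbp4, 821 for Igf1r, 664 for Igfbp6, 463 for Igfbp3, 435 for Igf1, 303 for Igfbp2, 247 for Insr and 172 for Igfbp5. These totals set how finely each gene can be followed, and they do not rank the genes against each other, since the 3′ counts are not scaled to a common capture rate. Igfbp2 and Igfbp5 are neighbours on chromosome 1 of GRCm38, with their 3′ ends facing and 5457 bases between them, and the other 7 genes lie on other chromosomes or, for Igfbp3 and Igfbp4, far apart on chromosome 11.

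**Figure D1:**
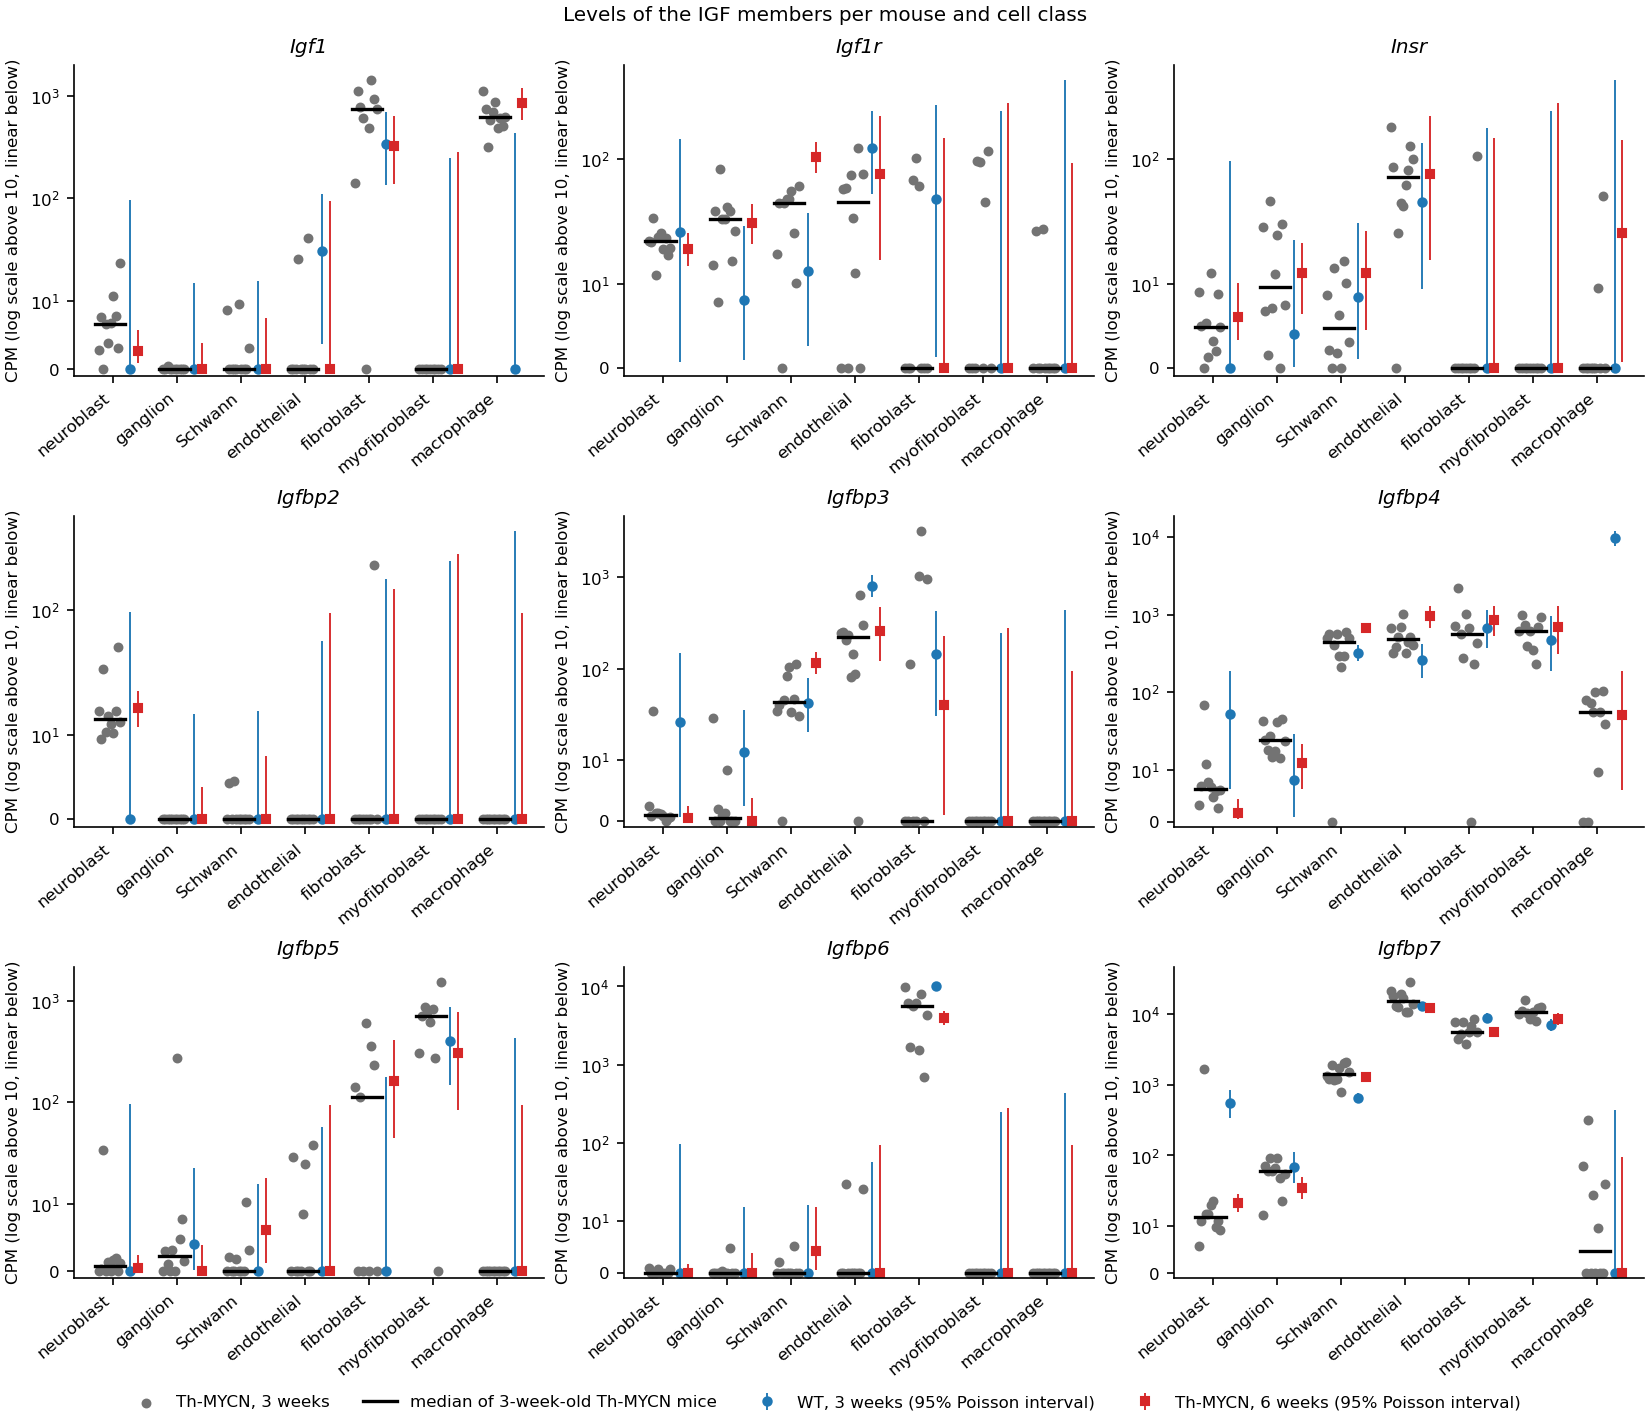
Level of each of the 9 genes (CPM, on a log scale that is linear near 0) in each cell class, with a point for every mouse that had at least 5 cells of the class and a bar at the median of the young transgenic mice. Igfbp7 runs from a median of 13.3 CPM in neuroblast-like cells to 15409.5 CPM in endothelial-like cells, while Igfbp2 has a median above 0 in neuroblast-like cells alone among the named classes.

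Igf1, the ligand, had its highest levels in macrophage-like and fibroblast-like cells. Over the 10 young transgenic mice its level in macrophage-like cells ran from 318 CPM in mouse 2, which rests on 1 UMI, through a median of 616 CPM to 1120.3 CPM in mouse 1. Over the 9 of these mice with at least 5 fibroblast-like cells it ran from 0 in mouse 5 through a median of 747 CPM to 1439.9 CPM in mouse 7. The ranges of these classes overlapped, with the fibroblast-like value higher in 5 of 9 mice, and macrophage-like cells held 58.1% of the Igf1 UMIs of the named classes, the many neuroblast-like cells 28.2% and fibroblast-like cells 11.6%. Neuroblast-like cells came next, from 0 in mouse 2 through a median of 6.68 CPM to 23.2 CPM in mouse 9. In mouse 9, 22 of the 38 Igf1 UMIs lay in 1 cell, and without the top cell of each mouse the highest value was 9.81 CPM. The macrophage-like value exceeded the neuroblast-like one in 10 of 10 mice, and their ranges did not overlap. The median was 0 in Schwann-like, ganglion-like, endothelial-like and myofibroblast-like cells, with 1 Igf1 UMI among 7617747 UMIs of ganglion-like cells and none among 104245 of myofibroblast-like cells.

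Igf1 had too few counts to pass the expression filter in any of the 7 comparisons between classes, so its tests come from the fit without that filter. In that fit the median log2 fold change of all genes was 0.03 in neuroblast-like against ganglion-like cells and 0.33 against Schwann-like cells. It was 0.19 in ganglion-like, −0.40 in endothelial-like and −1.16 in fibroblast-like against Schwann-like cells, −0.72 in myofibroblast-like against endothelial-like and 0.45 in macrophage-like against fibroblast-like cells. Values from that fit carry this offset, and small ones are not read as differences in level. There p follows from the log2 fold change over its SE by a normal distribution. The error is thus treated as known, not estimated from these mice. For Igfbp4 in neuroblast-like against ganglion-like cells the unadjusted edgeR p was 1.24e-08 in that fit and 2.59e-05 with the filter. The log2 fold changes were −1.80 and −1.84. The size of p without the filter is therefore not read as a measure over mice. Summed over 10 mice, neuroblast-like cells held 105 Igf1 UMIs and ganglion-like cells 1, a ratio of 60.2 per UMI sequenced with a counting interval of 10.6 to 2402. Counting intervals of such ratios, here and below, treat each UMI as independent and leave out the spread between mice and between cells. The 1 ganglion-like UMI was of mouse 2, and 38 of the 105 were of mouse 9, with 22 in 1 cell, so the size of the ratio rests on these mice. The level was higher in neuroblast-like cells in 9 of the 10 mice (edgeR's quasi-likelihood test, adjusted p = 2.88e-10). Against Schwann-like cells the log2 fold change of neuroblast-like cells was 1.87 with a standard error (SE) of 0.61, higher in 7 and lower in 2 of 10 mice (edgeR, adjusted p = 0.00645). Fibroblast-like cells exceeded Schwann-like cells by a log2 fold change of 6.05 (SE 0.53), in 8 of 9 mice (edgeR, adjusted p = 7.47e-28), and by 7.40 in a joint fit of all classes. Between macrophage-like and fibroblast-like cells the direction is not settled. The log2 fold change was 1.03 (SE 0.39) without the filter, higher in 4 and lower in 5 mice (edgeR, adjusted p = 0.0816). The joint fit gave 0.98 in the same mice (edgeR, adjusted p = 0.0269), and stricter filters on cells −0.26 with 1 mouse higher and 2 lower (edgeR, adjusted p = 0.687).

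Igf1r, the type 1 receptor, was spread over most classes. In the young transgenic mice it ran from 0 through a median of 45.6 to 122 CPM in endothelial-like cells and from 0 in mouse 2 through 44.9 to 61.1 CPM in Schwann-like cells. In ganglion-like cells it ran from 7.90 CPM in mouse 2 through 33.2 to 83.2 CPM in mouse 3, and in neuroblast-like cells from 12.0 through 22.0 to 34.1 CPM in mouse 2. All neighbours in this order overlapped, with endothelial-like above Schwann-like cells in 5 of 10 mice, Schwann-like above ganglion-like in 6 and ganglion-like above neuroblast-like in 7. Without mouse 2 the median was 33.7 CPM in endothelial-like and 45.0 CPM in Schwann-like cells, so the order between them is not settled. Fibroblast-like, myofibroblast-like and macrophage-like cells had a median of 0, with few UMIs sequenced per mouse. Summed over mice, Igf1r stood at 48.0 CPM in myofibroblast-like and 37.8 CPM in fibroblast-like cells, from 5 and 3 UMIs, next to 49.5 CPM in endothelial-like and 44.2 CPM in Schwann-like cells.

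Within single mice, Igf1r was lower in neuroblast-like cells than in both other neural crest classes. Against ganglion-like cells the log2 fold change was −0.68 (SE 0.25), with lower values in 7 of 10 mice (edgeR, adjusted p = 0.0207). Against Schwann-like cells it was −1.26 (SE 0.25), again lower in 7 of 10 mice (edgeR, adjusted p = 0.000132). The first of these calls was lost without the 5% of cells with the highest doublet scores, at a log2 fold change of −0.56 (edgeR, adjusted p = 0.0572). Mouse 2 was among the 3 mice with the opposite direction in both comparisons, and without it the log2 fold changes were −0.67 and −1.26, lower in 7 of 9 mice.

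Insr, the insulin receptor, had its highest levels in endothelial-like cells. They ran from 0 in mouse 2 through a median of 71.8 CPM to 183 CPM in mouse 1. Ganglion-like cells followed with 0, 9.74 and 46.2 CPM as lowest, median and highest values, then neuroblast-like cells with 0, 4.92 and 12.3 CPM and Schwann-like cells with 0, 4.72 and 15.4 CPM. The endothelial-like value was above the ganglion-like one in 8 of 10 mice, and every neighbouring pair in this order overlapped. Insr did not pass the filter in any comparison. Without the filter it was higher in endothelial-like than in Schwann-like cells (log2 fold change 3.13, SE 0.46, higher in 9 mice and lower in none, edgeR adjusted p = 1.81e-10). Ganglion-like cells exceeded neuroblast-like cells, which had a log2 fold change of −1.24 (SE 0.37) and lower values in 8 of 10 mice (edgeR, adjusted p = 0.00325), although the summed levels were 7.35 and 5.95 CPM. They also exceeded Schwann-like cells, by 1.31 (SE 0.48) and in 9 of 10 mice (edgeR, adjusted p = 0.0194), although the summed levels were 7.35 and 5.42 CPM. Myofibroblast-like cells had 0 Insr UMIs, so endothelial-like cells stood at least 2.33-fold higher, taking 3 counts over the group as the floor.

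Igfbp2, a secreted IGF-binding protein, was counted almost only in neuroblast-like cells. All 10 young transgenic mice had it there, from 9.53 CPM in mouse 10 through a median of 13.5 CPM to 50.9 CPM in mouse 8. In mouse 8, 64 of 98 UMIs lay in 1 cell, and without the top cell of each mouse the highest value was 17.7 CPM, again in mouse 8. Mouse 2 contributed 1 UMI. Of the Igfbp2 UMIs of the named classes, 98.4% lay in neuroblast-like cells, with 3 UMIs in Schwann-like cells, 1 in fibroblast-like cells and 0 elsewhere. That share also follows depth, since neuroblast-like cells held 13277392 UMIs of all genes and fibroblast-like cells 79458. Summed over mice, Igfbp2 stood at 18.1 CPM in the former and 12.6 CPM in the latter, from 1 UMI. In myofibroblast-like and NKT-like cells 3 counts would have been 28.8 and 95.9 CPM, so no order is read from their 0. Ganglion-like cells held none among 7617747 UMIs, where 3 counts would have been 0.394 CPM, so that the level summed over mice was at least 45.9-fold higher in neuroblast-like cells. The direction, not this bound, held in 10 of 10 mice. Against Schwann-like cells the ratio of summed levels was 14.4, with a counting interval of 4.88 to 70.5, and rests on 3 Schwann-like UMIs, of which 2 lay in 1 cell of mouse 10. Both directions passed the test without the filter (edgeR, adjusted p = 2.53e-19 and 3.82e-08), with the higher value in neuroblast-like cells in 10 of 10 mice each time.

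Igfbp3, the main carrier of IGF in the circulation, was highest in endothelial-like cells by its median. It ran from 0 in mouse 7 through 219 CPM to 640 CPM in mouse 8, where 8 of 10 UMIs lay in 1 cell. Schwann-like cells ran from 0 in mouse 2 through 42.8 to 113 CPM, and overlapped with the endothelial-like cells, which were higher in 8 of 10 mice. In fibroblast-like cells 5 of 9 mice had no Igfbp3 UMI, while mouse 7 stood at 3239.7 CPM from 9 UMIs of a single cell. Summed over mice, fibroblast-like cells had 453 CPM from 36 UMIs, above the 178 CPM of endothelial-like cells, so the order of these classes depends on the measure. Neuroblast-like cells had a median of 0.960 CPM and ganglion-like cells one of 0.399 CPM, and macrophage-like and myofibroblast-like cells had no Igfbp3 UMI. The highest neuroblast-like value was 34.1 CPM in mouse 2, and 2.38 CPM in the other mice.

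Igfbp3 was thus lower in the neural classes than in vessel lining and glia. Neuroblast-like cells stood below Schwann-like cells at a log2 fold change of −5.74 (SE 0.38), in 9 of 10 mice (edgeR, adjusted p = 2.60e-11). Without mouse 2 it was −5.86, in 9 of 9 mice. In the fit without the filter, ganglion-like cells also stood below Schwann-like cells, at −5.18 (SE 0.43) and in 9 of 10 mice (edgeR, adjusted p = 5.56e-32). Endothelial-like cells exceeded Schwann-like cells by 1.33 (SE 0.32), in 8 of 10 mice (edgeR, adjusted p = 0.000216). Summed over mice, the level in endothelial-like cells was at least 6.13-fold that in myofibroblast-like cells, and the level in fibroblast-like cells at least 48.7-fold that in macrophage-like cells. The latter rests on the 4 of 9 mice that had Igfbp3 UMIs in fibroblast-like cells. Against Schwann-like cells, fibroblast-like cells had a log2 fold change of 1.56 without the filter, with 4 mice higher and 4 lower (edgeR, adjusted p = 0.0105), so no direction over mice is read from it.

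Igfbp4, which binds IGF and keeps it from its receptor, was shared by stromal, vessel and glial cells. The lowest, median and highest levels were 228, 618 and 986 CPM in myofibroblast-like cells, and 0, 563 and 2225 CPM in fibroblast-like cells, the highest being mouse 2 with 5 cells. They were 317, 480 and 1020.1 CPM in endothelial-like cells, and 0, 449 and 587 CPM in Schwann-like cells. The 0 of Schwann-like cells is mouse 2, with 12 cells and 6222 UMIs, and the lowest value of the other mice was 211 CPM. These 4 classes overlapped, with the first of each neighbouring pair higher in 5 of 8, 6 of 9 and 7 of 10 mice. Well below them lay macrophage-like cells with a median of 55.3 CPM, ganglion-like cells with 24.1 CPM and neuroblast-like cells with 6.42 CPM. Ganglion-like cells ran from 14.4 to 45.9 CPM, and neuroblast-like cells from 2.60 CPM to 68.1 CPM in mouse 2, or 12.0 CPM in the other mice. Only 2 mice had at least 5 NKT-like cells, and Igfbp4 stood at 594 and 1358 CPM in them.

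The neural classes thus differed in Igfbp4 from the glia around them and from each other. Against Schwann-like cells, neuroblast-like cells had a log2 fold change of −6.44 (SE 0.29), lower in 9 of 10 mice (edgeR, adjusted p = 5.78e-14). They also stood below ganglion-like cells, at −1.84 (SE 0.34) and in 9 of 10 mice (edgeR, adjusted p = 7.85e-05), and mouse 2 was the exception both times. Ganglion-like cells stood below Schwann-like cells in 9 of 10 mice in the fit without the filter, at −3.99 (SE 0.26, edgeR adjusted p = 3.03e-50). Between the classes of high level no difference was called, with 0.38 (SE 0.23) for endothelial-like against Schwann-like cells, higher in 7 of 10 mice (edgeR, adjusted p = 0.170). The value was 0.24 (SE 0.30) for myofibroblast-like against endothelial-like cells, higher in 5 of 9 mice (edgeR, adjusted p = 0.463). Macrophage-like cells stood below fibroblast-like cells in 8 of 9 mice without the filter (log2 fold change −2.53, SE 0.55, edgeR adjusted p = 0.000107).

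Igfbp5, a binding protein that also attaches to extracellular matrix, was mainly a gene of myofibroblast-like cells. Its level there ran from 0 in mouse 8 through a median of 704 CPM to 1559 CPM in mouse 9. Fibroblast-like cells had 0, 113 and 613 CPM as lowest, median and highest values, overlapped with them, and were the lower of the pair in 6 of 8 mice. In ganglion-like cells the median was 2.20 CPM, and mouse 6 reached 275 CPM with 31 of its 33 UMIs in 1 cell, and 17.5 CPM without that cell. Without the filter, myofibroblast-like cells exceeded endothelial-like cells by a log2 fold change of 4.54 (SE 0.55), in 8 mice with none opposite (edgeR, adjusted p = 3.90e-14). Fibroblast-like cells exceeded Schwann-like cells, with 10 UMIs against 3 and a ratio of summed levels of 85.6 (counting interval 22.0 to 484), in 5 mice with 2 opposite (edgeR, adjusted p = 4.99e-06). Igfbp5 was thus high in a different class than its chromosomal neighbour Igfbp2.

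Igfbp6, a binding protein with a preference for IGF2, was mainly counted in fibroblast-like cells. Over 9 mice its level there ran from 696 CPM in mouse 8 through a median of 5611 CPM to 9811 CPM in mouse 1, and the median was 0 in every other named class. Of its UMIs in the named classes, 344 or 96.9% lay in fibroblast-like cells. The range did not overlap with that of endothelial-like cells, which were lower in 9 of 9 mice. Few cells carried much of the total, with 12 of 22 UMIs in 1 cell in mouse 7 and 21 of 40 in mouse 9, and without the top cell of each mouse the median was 3861 CPM. Summed over 9 mice, fibroblast-like cells held 327 UMIs and Schwann-like cells 1, a ratio of 8401 with a counting interval of 1497 to 332807 (edgeR, adjusted p = 9.27e-21, higher in 9 of 9 mice). Macrophage-like cells had 0 Igfbp6 UMIs and stood at least 442-fold lower when summed over mice, with the lower value in 9 of 9 mice (edgeR, adjusted p = 1.68e-09). Igfbp6 can pass the filter in these comparisons only through its fibroblast-like counts. Both tests therefore restate where it was counted, and no support is drawn from them.

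Igfbp7 binds IGF only weakly and is known as a secreted protein of vessel walls and matrix. In endothelial-like cells it ran from 10590.4 CPM in mouse 6 through 15409.5 CPM to 28998 CPM in mouse 8, and held 65.0% of its UMIs of the named classes there. Myofibroblast-like cells followed with 8029, 10787 and 15979 CPM as lowest, median and highest values, then fibroblast-like cells with 3780.1, 5658 and 8583 CPM. Schwann-like cells had 788, 1429.7 and 2092 CPM. The steps from fibroblast-like to Schwann-like cells (9 of 9 mice) and from Schwann-like to ganglion-like cells (10 of 10 mice) were free of overlap. Ganglion-like cells ran from 14.3 through 60.7 to 92.4 CPM and neuroblast-like cells from 5.71 through 13.3 CPM, with 1703 CPM in mouse 2 and at most 22.4 CPM in the other mice. The high value of mouse 2 came from 50 UMIs, with at most 7 in a cell, in the neuroblast-like cells that also carried Schwann and endothelial markers, whose part in it was not tested. Macrophage-like cells had a median of 4.78 CPM, with 0 in 5 of 10 mice and 318 CPM in mouse 2, and a median of 0 without mouse 2. The 2 mice with enough NKT-like cells had no Igfbp7 in them.

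Igfbp7 was the only one of the 9 genes that passed the filter in all 7 comparisons, and it differed in each. Endothelial-like cells exceeded Schwann-like cells by a log2 fold change of 3.53 (SE 0.18), in 10 of 10 mice (edgeR, adjusted p = 2.11e-13). Fibroblast-like cells exceeded Schwann-like cells by 2.08 (SE 0.20), in 9 of 9 mice (edgeR, adjusted p = 2.66e-10), and by 0.87 without the filter (edgeR, adjusted p = 0.00300). Among the neural crest classes Schwann-like cells were highest. Ganglion-like cells stood below Schwann-like cells at −4.75 (SE 0.23), in 10 of 10 mice (edgeR, adjusted p = 1.03e-14), and neuroblast-like cells at −6.52 (SE 0.58), in 10 of 10 mice (edgeR, adjusted p = 2.70e-09). Neuroblast-like cells stood below ganglion-like cells at −1.50 (SE 0.55), in 9 of 10 mice (edgeR, adjusted p = 0.0203). This last value rests on mouse 2, without which it was −2.09 (SE 0.21), lower in 9 of 9 mice (edgeR, adjusted p = 1.34e-07). With no replicate block it was −1.00035 (edgeR, adjusted p = 0.291). Free RNA held 271 to 875 CPM of Igfbp7 and was estimated at 1.79% to 6.90% of the UMIs of these libraries, which comes near the levels of neuroblast-like cells. After its subtraction Igfbp7 did not pass the filter in this comparison, and stood at −8.53 in neuroblast-like and −5.37 in ganglion-like against Schwann-like cells. Every alternative that tested Igfbp7 here gave a negative value, down to −2.96 with stricter cells (lower in 10 of 10 mice, edgeR adjusted p = 2.73e-10), so the direction held and the size did not.

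In the stromal classes Igfbp7 was far lower in macrophage-like than in fibroblast-like cells, at a log2 fold change of −8.38 (SE 0.38) and in 9 of 9 mice (edgeR, adjusted p = 3.45e-13). Mural and lining cells of the vessels lay close, with myofibroblast-like below endothelial-like cells at −0.45 (SE 0.16), in 7 of 9 mice (edgeR, adjusted p = 0.0214). That small difference lost its call in 6 of 11 alternative settings, of which the one without mouse 2 leaves these sums as they are, where the log2 fold change ran from −0.89 to −0.19. Without the filter it was −1.42 (edgeR, adjusted p = 3.68e-24), next to the offset of −0.72 of all genes in that fit, so its size is not settled.

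The members past an adjusted p of 0.05 were counted beside the share of all genes, and a gene high in only 1 of the classes compared passes the filter through that class. Counts without the filter, of members and of all genes, use p values that treat the error as known. In neuroblast-like against ganglion-like cells 3 of 3 tested members were called, against 66.3% of all genes, and 7 of 9 without the filter, against 38.9%. In neuroblast-like against Schwann-like cells the counts were 4 of 4 against 68.6%, and 6 of 9 against 41.6%. In ganglion-like against Schwann-like cells they were 1 of 1 against 69.7%, and 5 of 9 against 39.1%. In endothelial-like against Schwann-like cells, 1 of 2 against 58.3%, and 3 of 9 against 22.1%, were called. Fibroblast-like against Schwann-like cells gave 2 of 2 against 59.4%, and 5 of 9 against 15.4%. Myofibroblast-like against endothelial-like cells gave 1 of 2 against 70.7%, and 4 of 8 against 11.5%, with Igfbp2 at 0 in both classes. Macrophage-like against fibroblast-like cells gave 2 of 2 against 53.5%, and 5 of 9 against 8.90%.

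Direction differed between the members within a comparison. In neuroblast-like against ganglion-like cells without the filter, Igfbp2 and Igf1 were higher in the neuroblast-like cells, and Igfbp4, Igfbp5, Igfbp7, Igf1r and Insr were lower. Of these, Igfbp5 rests on 49 UMIs of ganglion-like cells, of which 31 lay in 1 cell of mouse 6, and was lower in 6 and higher in 1 of 10 mice. Against Schwann-like cells, Igfbp2 and Igf1 were again higher, and Igfbp3, Igfbp4, Igfbp7 and Igf1r lower. These comparisons share the neuroblast-like sums, so they are not independent of each other.

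The share of cells with at least 1 UMI was compared after thinning each cell to 500 UMIs, which left out 59 neuroblast-like, 398 Schwann-like, 415 ganglion-like, 41 macrophage-like, 112 endothelial-like, 29 fibroblast-like and 30 myofibroblast-like cells of the young transgenic mice. Median depths without thinning were 4354 UMIs in neuroblast-like, 1166 in ganglion-like, 971 in Schwann-like, 1196.5 in endothelial-like, 1009 in macrophage-like, 762 in myofibroblast-like and 743 in fibroblast-like cells. Igf1 was seen in 24.1% of thinned macrophage-like cells (39.5% unthinned) and in 23.8% of fibroblast-like cells (29.3% unthinned). As a background, 0.164% of Schwann-like cells had it (0.180% unthinned), and 0.260% of neuroblast-like cells (2.84% unthinned), whose interval of 0.105% to 0.536% overlaps that of Schwann-like cells after thinning (0.0339% to 0.480%). Igfbp2 was seen in 0.670% of neuroblast-like cells (5.97% unthinned) and in no ganglion-like cell with or without thinning. The ligand was thus seen far more often in macrophage-like and fibroblast-like cells than in the background class, while few neuroblast-like cells showed a UMI of Igfbp2.

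The receptors were seen in few cells of any class. Igf1r was seen in 2.67% of endothelial-like (6.07% unthinned), 1.97% of Schwann-like (4.41% unthinned), 1.08% of neuroblast-like (9.28% unthinned) and 0.890% of ganglion-like cells (6.40% unthinned). The last 2 stand in the opposite order to the test of levels, with intervals that overlap (0.724% to 1.55% and 0.528% to 1.40%), and no order is read from them. These shares pool cells over mice, and mouse 2 gave 1462 of the 2438 ganglion-like but 39 of the 2747 neuroblast-like cells. No thinned macrophage-like cell had Igf1r. Insr was seen in 4.33% of endothelial-like cells (9.22% unthinned), against 0.384% of Schwann-like cells (0.585% unthinned).

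Among the binding proteins, Igfbp7 was seen in 94.7% of endothelial-like (97.3% unthinned), 94.6% of myofibroblast-like (94.3% unthinned) and 92.1% of fibroblast-like cells (91.3% unthinned). It was seen in 36.2% of Schwann-like cells (51.7% unthinned), against 2.92% of ganglion-like (11.6% unthinned), 0.595% of neuroblast-like (3.86% unthinned) and 1.15% of macrophage-like cells (2.33% unthinned). Igfbp7 thus marked nearly every vessel and fibroblast-like cell. Igfbp4 was seen in 23.9% of myofibroblast-like (29.5% unthinned), 20.3% of endothelial-like (43.0% unthinned), 17.3% of Schwann-like (31.9% unthinned) and 15.9% of fibroblast-like cells (31.5% unthinned), against 0.558% of neuroblast-like cells (2.73% unthinned). Igfbp6 was seen in 57.1% of fibroblast-like cells (64.1% unthinned), and in no thinned Schwann-like cell (0.0900% unthinned). Igfbp5 was seen in 16.3% of myofibroblast-like (23.8% unthinned) and 3.17% of fibroblast-like cells (7.61% unthinned), and in no thinned macrophage-like cell. Igfbp3 was seen in 9.67% of endothelial-like (18.2% unthinned), 11.1% of fibroblast-like (10.9% unthinned) and 2.25% of Schwann-like cells (4.77% unthinned), against 0.149% of neuroblast-like cells (0.546% unthinned). The order of shares between endothelial-like and fibroblast-like cells goes against that of their median levels, and no order is read from it.

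**Figure D2:**
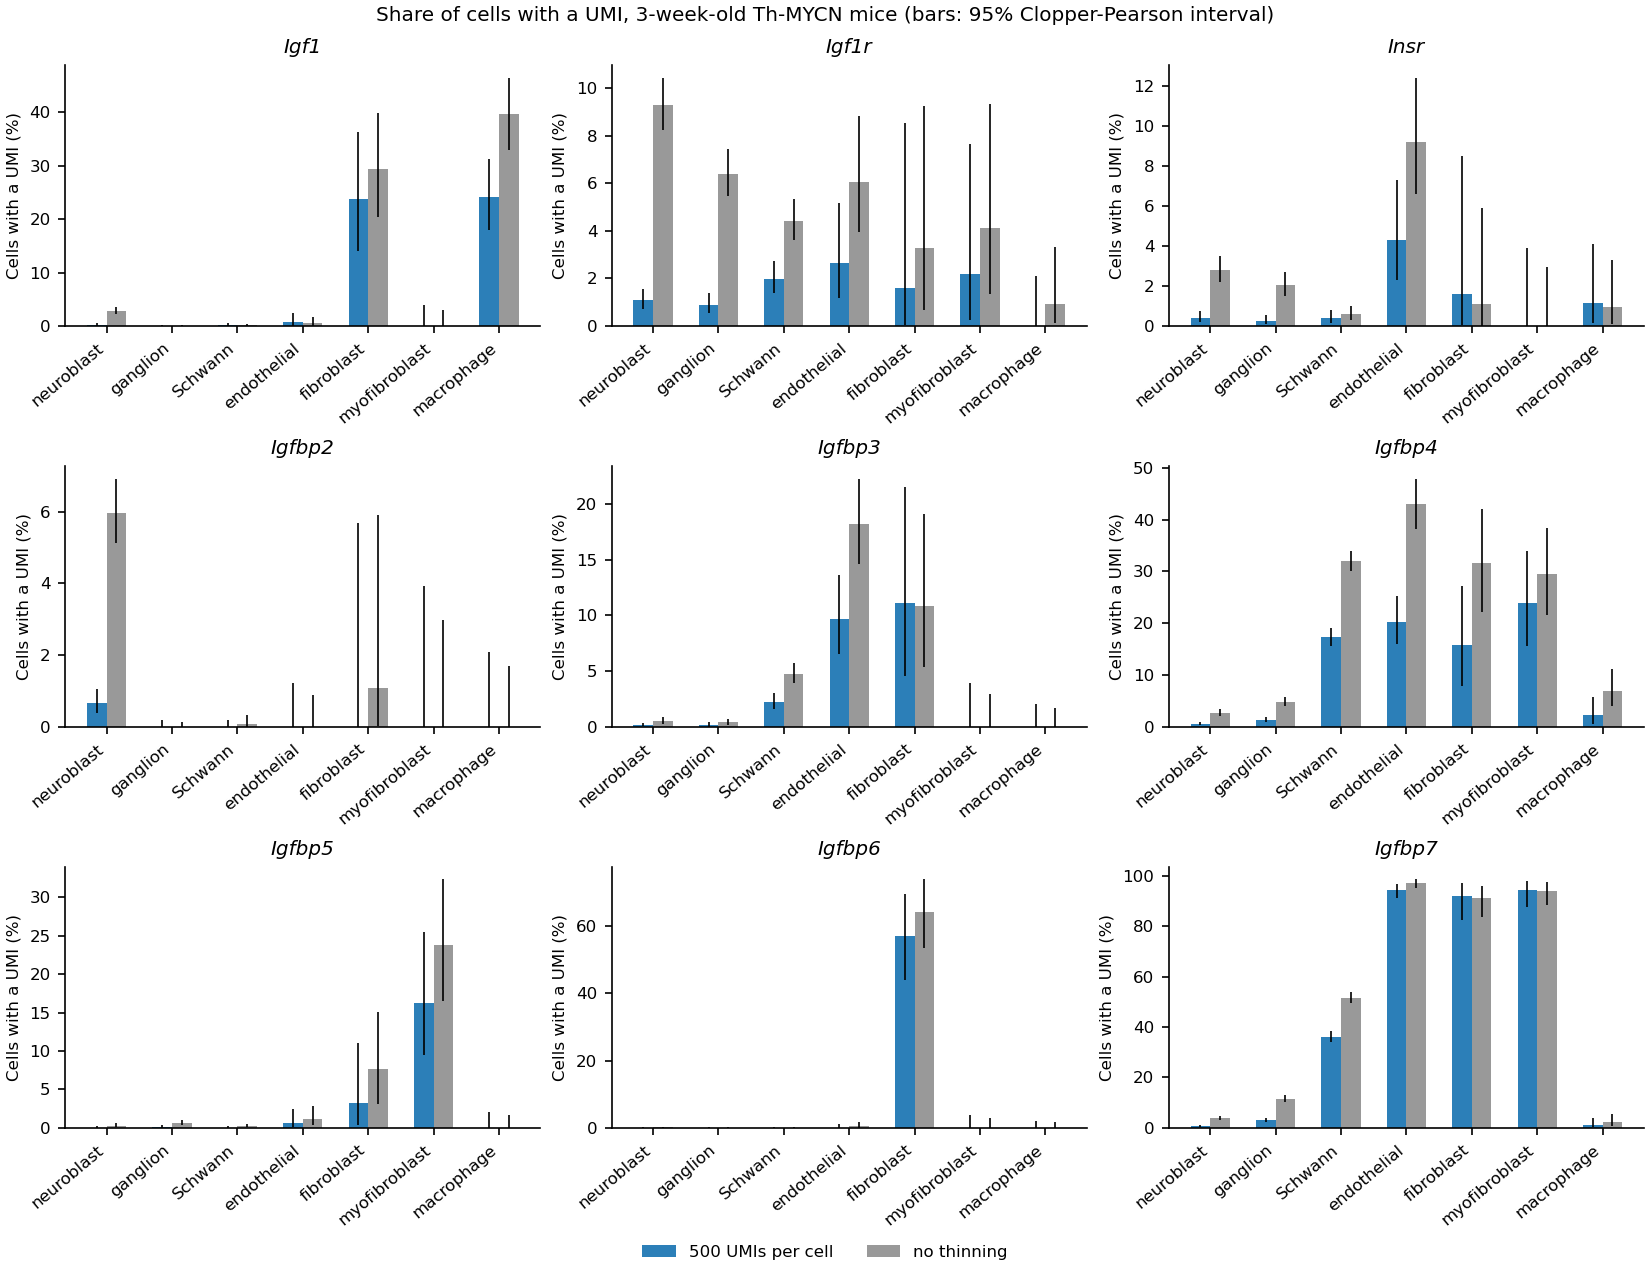
Percent of cells with at least 1 UMI of each gene in each class of the young transgenic mice, with cells thinned to 500 UMIs in blue, without thinning in grey, and exact binomial intervals at 95%. Igfbp7 reaches 94.7% in endothelial-like cells and Igfbp6 57.1% in fibroblast-like cells after thinning, while thinned Igf1r stays at or under 2.67% in the 7 classes shown.

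Across conditions there was 1 WT mouse and 1 6-week-old mouse, so no test was made, and the intervals that follow are exact Poisson intervals at 95% that cover counting error only. Igf1 in macrophage-like cells was 0 among 8497 UMIs in the WT mouse, where 3 counts would be 353 CPM, and 844 CPM (581 to 1186) in the 6-week-old mouse, inside the range of the young transgenic mice. In fibroblast-like cells it was 339 CPM (136 to 699) in the WT and 324 CPM (140 to 638) in the 6-week-old mouse, again inside that range. The neuroblast-like cells of the 6-week-old mouse had 2.61 CPM (0.958 to 5.68) of Igf1. The 0 of the 10 macrophage-like cells of the WT mouse has an upper limit of 434 CPM, above the 318 CPM of mouse 2 and below the 488 CPM that is lowest without mouse 2. The 2.61 CPM of the 6-week-old mouse is inside the range of neuroblast-like cells through the 0 of mouse 2, and the lowest of the other mice had 2.86 CPM.

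Igf1r in Schwann-like cells was 12.8 CPM (2.63 to 37.3) in the WT mouse and 104 CPM (77.4 to 137) in the 6-week-old mouse. In the latter 35 of 51 UMIs lay in 1 cell, and the level was 32.7 CPM without it, within the range of 0 to 61.1 CPM of the young transgenic mice. In ganglion-like cells Igf1r was 8.10 CPM in the WT and 31.0 CPM in the 6-week-old mouse, both within 7.90 to 83.2 CPM, although the lowest value without mouse 2 was 14.3 CPM, above that of the WT mouse, which rests on 2 UMIs. Endothelial-like cells had 123 CPM (53.0 to 242) of Igf1r and 46.0 CPM (9.49 to 134) of Insr in the WT mouse, and 76.6 CPM of each in the 6-week-old mouse. Leaving out that 1 cell, no interval of a receptor lay outside the range of the young transgenic mice.

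Igfbp2 in neuroblast-like cells stood at 16.5 CPM (11.7 to 22.7) in the 6-week-old mouse, from 38 UMIs with at most 2 in a cell, against a median of 13.5 CPM in the young transgenic mice. The neuroblast-like cells of the 6-week-old mouse carried 13266 CPM of the ganglion list, led by Npy, and 16318 CPM of the neuroblast list, against 4420.8 and 21576 CPM in the young transgenic mice. The part of this in their Igf1 and Igfbp2 was not tested. The WT mouse had no Igfbp2 UMI in any kept cell. Igfbp3 in endothelial-like cells was 813 CPM (609 to 1063) in the WT mouse, above the 640 CPM that was highest in the young transgenic mice, and 663 CPM without its top cell. In the 6-week-old mouse it was 255 CPM (122 to 470), close to their median of 219 CPM. Without the top cell of each mouse, the highest young transgenic value was 220 CPM. The endothelial-like cells of the WT mouse thus lay above the young transgenic mice for Igfbp3, in 1 mouse.

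Igfbp4 showed the opposite order of the WT and the 6-week-old mouse in those cells. It was 261 CPM (152 to 417) in the WT mouse, under the lowest young transgenic value of 317 CPM, which its interval includes. In the 6-week-old mouse it was 945 CPM (665 to 1303), inside the young transgenic range of 317 to 1020.1 CPM. In Schwann-like cells Igfbp4 was 319 CPM (251 to 400) in the WT and 666 CPM (596 to 743) in the 6-week-old mouse, the latter above the highest young transgenic value of 587 CPM. After thinning, 13.4% of Schwann-like cells of the WT mouse and 25.0% of those of the 6-week-old mouse had an Igfbp4 UMI. In macrophage-like cells of the WT mouse 80 of 82 Igfbp4 UMIs lay in 1 cell, and the level was 9650.5 CPM with it and 285 CPM without it. The level of Igfbp4 in Schwann-like cells was thus higher in the 6-week-old than in the WT mouse, in 1 mouse each. The intervals do not overlap but leave out the spread between mice, which was 211 to 587 CPM in the young transgenic mice without mouse 2, with the WT value inside it.

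Igfbp5 in myofibroblast-like cells was 400 CPM in the WT and 305 CPM in the 6-week-old mouse, within the range of the young transgenic mice. Igfbp6 in fibroblast-like cells was 10084 CPM (8760 to 11552) in the WT mouse, with 95 of 208 UMIs in 1 cell and 5728 CPM without it, and 3965 CPM (3219 to 4832) in the 6-week-old mouse. The WT value was above the highest of the young transgenic mice (9811 CPM), and without the top cells it lay between their median of 3861 CPM and their highest value of 9701 CPM. Igfbp7 in endothelial-like cells was 13159 CPM in the WT and 12083 CPM in the 6-week-old mouse, inside the range of the others. In Schwann-like cells it was 660 CPM (560 to 772) in the WT mouse, under the lowest young transgenic value of 788 CPM, and 1308 CPM in the 6-week-old mouse. Among thinned Schwann-like cells 24.2% in the WT and 39.5% in the 6-week-old mouse had an Igfbp7 UMI, next to median depths of 557 and 1322.5 UMIs. Igfbp4 and Igfbp7 were thus both lower in the Schwann-like cells of the WT mouse than in those of the 6-week-old mouse, and genotype, age and mouse cannot be told apart.

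The other genes of the IGF pathway were taken as a list of 43, with Igf2 as ligand, 2 other receptors, 3 other binding proteins and partners, 5 proteases of binding proteins or their inhibitors, 10 adaptors, 19 genes of the PI3K-AKT-mTOR branch and 3 IGF2 mRNA-binding proteins. In neuroblast-like against ganglion-like cells 19 were tested, of which 6 were higher and 9 lower, with a median log2 fold change of −0.32 against 0.02 over all 7221 genes, where 2397 were higher and 2389 lower. Without the filter 6 were higher and 11 lower (median −0.30 against 0.03). In neuroblast-like against Schwann-like cells 13 were tested, with 7 higher and 3 lower and a median of 0.54 against 0.08 over all 5592 genes, where 2030 were higher and 1808 lower. Without the filter 9 were higher and 9 lower, and the median of 0.12 lay below the 0.33 of all genes. In ganglion-like against Schwann-like cells 5 of 8 were higher and 3 lower (median 0.75 against 0.02), and without the filter 12 were higher and 11 lower (median −0.03 against 0.19). The list as a whole thus has no direction that holds with and without the filter in neuroblast-like or in ganglion-like against Schwann-like cells. In neuroblast-like against ganglion-like cells more of the list were lower than higher both times, with a median below that of all genes. The list was not tested as a set. In endothelial-like against Schwann-like cells 1 of 4 was higher and 1 lower (median −0.30 against −0.02), and without the filter 5 were higher and 7 lower (median −0.16 against −0.40). None of the list passed the filter in the other 3 comparisons. Without the filter, 0 were higher and 4 lower in fibroblast-like against Schwann-like cells (median −0.83 against −1.16). In myofibroblast-like against endothelial-like cells 0 were higher and 3 lower (median −0.54 against −0.72). In macrophage-like against fibroblast-like cells 1 was higher and 2 lower (median −0.58 against 0.45).

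Igfbpl1, a relative of the binding proteins, had the largest difference of the list. It ran from 102 through 403 to 584 CPM in neuroblast-like cells and from 0 through 3.92 to 57.3 CPM in ganglion-like cells, without overlap (log2 fold change 5.99, SE 0.46, higher in 10 of 10 mice, edgeR adjusted p = 5.26e-10). Against Schwann-like cells its log2 fold change was 5.52 (SE 0.30), in 10 of 10 mice (edgeR, adjusted p = 1.10e-12). Pik3r1, a regulatory subunit of PI3K, ran from 409 through 762 to 1116 CPM in neuroblast-like cells, from 25.7 through 78.8 to 122 CPM in ganglion-like cells and from 113 through 177 to 267 CPM in Schwann-like cells. It was higher in neuroblast-like cells in 10 of 10 mice of both comparisons, by 3.49 (SE 0.17, edgeR adjusted p = 1.85e-12) and 1.81 (SE 0.16, edgeR adjusted p = 1.73e-09). Both genes set the neuroblast-like cells apart from the other neural crest classes in every mouse. Igf2bp3, an mRNA-binding protein named for IGF2, was higher by 1.87 (SE 0.31, edgeR adjusted p = 2.06e-05) and 1.32 (SE 0.36, edgeR adjusted p = 0.00277), each in 9 of 10 mice.

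Other genes of the list differed between the comparisons, and not all that passed the rule for naming are given. Against ganglion-like cells, the adaptor Grb10 was higher by 1.64 and the kinase Akt2 by 0.67, each in 10 of 10 mice (edgeR, adjusted p = 1.31e-06 and 0.0249). The adaptor Shc1 stood at −2.26 and the small GTPase Rheb at −0.99, each lower in 10 of 10 mice (edgeR, adjusted p = 9.90e-09 and 6.26e-07). Mtor stood at −0.91, lower in 8 mice, and the transcription factor Foxo3 at −0.68, lower in 9 of 10 mice (edgeR, adjusted p = 0.00436 and 0.0412). Against Schwann-like cells, the kinases Pdpk1 and Gsk3b were higher by 0.85 each, in 9 and 10 of 10 mice (edgeR, adjusted p = 0.00719 and 0.000213). The PI3K subunit Pik3r2 stood at −0.82, lower in 7 of 10 mice (edgeR, adjusted p = 0.00447). Akt2 stood there at −0.75, with 5 mice in each direction (edgeR, adjusted p = 0.0459), so no direction over mice is read from it.

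The genes whose levels were most like those of a member were looked up by the Pearson correlation of log2(CPM + 10), among 11029 genes. This used 45 sums of a young transgenic mouse and a class with at least 20000 UMIs. These sums share mice and libraries and follow the classes, so the values describe the pattern only, with no test. No sum of fibroblast-like cells of these mice reached 20000 UMIs, so the likeness leaves out the class in which the median of Igf1 and Igfbp6 was highest. Of the 45 sums, 2 were of myofibroblast-like cells, the class in which Igfbp5 was highest. Igf1 was most like the macrophage genes Mpeg1 (r = 0.964), Trem2 (0.962) and Spi1 (0.961). Igfbp7 was most like Cavin3 (0.984), Col4a2 (0.971) and Sparcl1 (0.964), genes of caveolae, basement membrane and matrix. Igfbp4 was most like Sparc (0.931), Hes1 (0.910) and Rhoc (0.910).

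Igfbp2 was most like Mybl2 (0.953), a transcription factor of dividing cells, Prrt4 (0.925) and Prrxl1 (0.921). Igfbp3 was most like Prex2 (0.897), Wwtr1 (0.888) and Castor1 (0.885), and Insr most like Stim2 (0.839), Fam171a1 (0.803) and Trim25 (0.798). The likeness was weaker for Igf1r, with Golga7 (0.765), Ubr1 (0.682) and Synm (0.661), and for Igfbp5, with Nrip2 (0.747) and the mural cell genes Acta2 (0.734) and Rgs5 (0.730). For Igfbp6 it was weakest, with AI480526 (0.696), Trmt11 (0.666) and Synpo (0.619). It rests on few UMIs, with 2 Igfbp6 UMIs in Schwann-like, 3 in endothelial-like, 2 in ganglion-like and 4 in neuroblast-like cells of the young transgenic mice. Macrophage-like and myofibroblast-like cells had 0, so no likeness is read for Igfbp6.

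Unnamed cells of the young transgenic mice, which carry transgene transcripts, had a median of 16.9 CPM of Igf1r, 6.62 CPM of Igfbp2, 3.82 CPM of Igf1, 5.05 CPM of Insr, 3.20 CPM of Igfbp4 and 28.3 CPM of Igfbp7. Their Igfbp2 rested on 17 UMIs in 17 cells and ran from 0 in 3 mice to 29.3 CPM in mouse 8, the mouse that was also highest in neuroblast-like cells.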

How the data were processed

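The authors counted UMIs per gene and barcode with Cell Ranger 3.0.2, as the file headers state, against mm10 plus human MYCN, and the deposited counts cover all barcodes and are not normalized. The sources name no release of the annotation, and gene positions here come from GENCODE vM21 on GRCm38.

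Cells were called from the deposited counts with an implementation of the EmptyDrops method (ambient profile from barcodes with at most 100 UMIs, 10000 draws, false discovery rate 0.01). The barcodes used for its dispersion were changed once after a first test on simulated data, before any class was named. In that test empty droplets drawn under the method's own model were rarely called, but most of those drawn without extra dispersion were called. Shallow barcodes kept here can therefore include empty droplets, and calling by at least 500 UMIs is given as an alternative. Of 16096 called barcodes, 4037 had under 200 genes, 223 more than 10% mitochondrial UMIs and 0 more than 60% ribosomal UMIs. Scrublet marked 43 of 11941 cells (0.360%), which was taken to mean that it had not worked, with no expected rate to compare, and an alternative leaves out the 590 highest scores. Clustering used Seurat 5.3.0 with sctransform 0.4.2 on 2000 variable genes, with depth, genes, mitochondrial and ribosomal percent and cell cycle scores regressed out as the study did. The 30 components and the resolution of 0.5 were chosen here. The IGF genes, the transgene and the spike features were left out. A cluster took the name of the list with the largest share of markers at 1.5-fold and in 10% of cells, if that was at least 50% of the list and 3 markers, and a cluster far shallower than its libraries needed 1 of them among its top 10 genes. The shallow cluster of the log-normalized alternative, at 0.362 of the median of its libraries, was just above that limit. This rule was set after the files were seen.

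UMIs were summed per mouse and class (at least 5 cells) and tested with edgeR 4.0.16 (quasi-likelihood test, TMM scaling, filter on low counts, mouse as a block, Benjamini-Hochberg adjustment), with DESeq2 1.42.0 as an alternative, in R 4.3.3. The mouse is the block because both sums of a mouse come from 1 library. The correlation of their deviations exceeded 0.1 in 6, 4, 2, 1, 1, 0 and 0 mice of the 7 comparisons. CPM is UMIs of a gene per 1000000 UMIs of the class in a mouse. The order of levels uses classes with at least 4 mice, a limit set after the values were seen, since NKT-like cells had 2 mice. Free RNA was estimated from Npy, Dbh and Th, genes picked after the files were seen, at 1.79% to 6.90% of the UMIs of a library. The cell calling and the fits were tested on simulated data, and the other steps were not. Other steps used Python 3.11.15, numpy 2.4.6, scipy 1.17.1, pandas 2.3.3, scanpy 1.11.5, numba 0.67.0 and matplotlib 3.10.9.

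The members and lists were chosen with earlier results of these data known. All 9 members are named. Of the pathway list, those past an adjusted p of 0.05 with the largest absolute log2 fold change are named, up to 5 in each direction, for neuroblast-like against ganglion-like and against Schwann-like cells. Some genes that met this rule are left out of the text, and the counts of the list include them. Likeness was computed for members with at least 100 UMIs, among genes with at least 100 UMIs in the sums. The limit for members does not refer to the sums, and 344 Igfbp6 UMIs lay in fibroblast-like cells, which are not among them. Levels without the top cell, marker sums per mouse and ratios of summed UMIs were added after seeing the data.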

Additional observations from a re-analysis of the deposited data

Results flagged for a closer look

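In 9 of 29 pairs of a gene and a class with at least 20 UMIs, 1 mouse lay far from the other young transgenic mice, with a gap to its nearest mouse that exceeded Dixon's limit at 95% as a share of the range. For values that follow a normal distribution, chance gives this in about 1 in 20 groups, and counts this low need not follow one. Mouse 2 was the far one in 3 pairs, with 1703 CPM of Igfbp7 and 68.1 CPM of Igfbp4 in neuroblast-like cells and 2225 CPM of Igfbp4 in fibroblast-like cells. Its sums behind these values are small, with 29365 UMIs of all genes in 39 neuroblast-like cells and 1798 in 5 fibroblast-like cells. Mouse 9 was far above the others with 23.2 CPM of Igf1 in neuroblast-like cells, and 22 of the 38 UMIs behind it lay in 1 cell. Mouse 3 stood above the rest with 83.2 CPM of Igf1r in ganglion-like cells, from 9 UMIs with at most 3 in a cell. Igfbp3 was far higher in mouse 8 in endothelial-like cells (640 CPM, 8 of 10 UMIs in 1 cell) and in mouse 7 in fibroblast-like cells (3239.7 CPM, all 9 UMIs in 1 cell). Igfbp4 in endothelial-like cells was far higher in mouse 5, at 1020.1 CPM, where 52 of 121 UMIs lay in 1 cell, and stood at 595 CPM without it. Igfbp5 in ganglion-like cells stood at 275 CPM in mouse 6, where 31 of 33 UMIs lay in 1 cell.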

How the results depend on the processing

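For members that passed the filter of the edgeR fit, 157 log2 fold changes under the alternatives kept their direction and side of the threshold, 8 kept the direction without passing it, and 3 turned. In 10 of the 157 the alternative left the sums as they were, 8 with at least 10 cells and 2 without mouse 2. The 3 that turned were never called. Igfbp4 in endothelial-like against Schwann-like cells was −0.01 without the filter, and in myofibroblast-like against endothelial-like cells −0.71 without the filter and −0.28 in the joint fit. Counts of members stayed within 1.5 times in 55 and moved in 22 cases, and counts of all genes did so in 61 and 16 cases. Members tested without the filter alone are outside these counts. Among them, Igf1 in macrophage-like against fibroblast-like cells was 1.03 without the filter, 0.98 in the joint fit (edgeR, adjusted p = 0.0269) and −0.26 with stricter cells.

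Without the filter on low counts more genes are tested, and 7 members were called in neuroblast-like against ganglion-like, 5 in ganglion-like against Schwann-like, 3 in endothelial-like against Schwann-like, 5 in fibroblast-like against Schwann-like, 4 in myofibroblast-like against endothelial-like and 5 in macrophage-like against fibroblast-like cells. Of all genes, 7455 were then called in neuroblast-like against ganglion-like and 7820 against Schwann-like cells, 6993 in ganglion-like, 3531 in endothelial-like and 2313 in fibroblast-like against Schwann-like cells, 1540 in myofibroblast-like against endothelial-like and 1066 in macrophage-like against fibroblast-like cells. The joint fit over all 7 classes tests 2326 genes in each comparison. It called 5 members in ganglion-like, 2 in endothelial-like and 5 in fibroblast-like against Schwann-like cells, 2 in myofibroblast-like against endothelial-like and 6 in macrophage-like against fibroblast-like cells. Of all genes it called 1654 in neuroblast-like against ganglion-like and 1744 against Schwann-like cells, 792 in fibroblast-like against Schwann-like, 714 in myofibroblast-like against endothelial-like and 909 in macrophage-like against fibroblast-like cells.

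In ganglion-like against Schwann-like cells 2 of 2 members were called, in place of 1 of 1, without mouse 2, with stricter cells (at least 500 genes, at most 5% mitochondrial UMIs), with log-normalized clustering, with at least 500 UMIs and after subtraction of free RNA, because Igfbp4 then passed the filter. In fibroblast-like against Schwann-like cells 114 genes were called, and 310 with at least 10 cells per sum, 340 without mouse 2, 188 with stricter cells and 284 with at least 500 UMIs, where 947, 883, 531 and 778 genes were tested in place of 192. In macrophage-like against fibroblast-like cells 1 of 1 member was called with log-normalized clustering. Without mouse 2 the counts of members in the 7 comparisons, in the order of the report, were 3, 4, 2, 1, 2, 1 and 2.

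In myofibroblast-like against endothelial-like cells 0 members were called with DESeq2, at least 10 cells, stricter cells, log-normalized clustering or at least 500 UMIs. At an unadjusted p under 0.05 DESeq2 called 1, and edgeR called 0, 0, 1 and 1 in the other 4. Igfbp7 then had log2 fold changes of −0.40, −0.19, −0.30, −0.37 and −0.38 (adjusted p = 0.0534, 0.373, 0.277, 0.0537 and 0.0552), and −0.89 in the joint fit (adjusted p = 0.0768). The cause was not tested. With no replicate block, Igfbp7 in neuroblast-like against ganglion-like cells was −1.00035 (edgeR, adjusted p = 0.291), and the block changed no other call of a member. That gene had no test after subtraction of free RNA, since it failed the filter. Igf1r in the same comparison was −0.56 without the highest doublet scores (edgeR, adjusted p = 0.0572). The cause was not tested.

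The level of Igfbp6 in fibroblast-like cells of the WT mouse was 12896 CPM with stricter cells and 5728 CPM without its top cell, and 3026 CPM without the top cell in the 6-week-old mouse, an alternative chosen after seeing the data. The other 51 levels of these mice, in the class where each gene was highest, stayed within their counting interval and 9 medians within their standard deviation over mice, and with the thinning depth 11 shares moved and 7 did not. With DESeq2, whose scaling and model both differ, the median log2 fold change of all genes moved from 0.08 to 0.24 in neuroblast-like, from 0.02 to 0.16 in ganglion-like and from −0.02 to −0.13 in endothelial-like against Schwann-like cells, and from −0.03 to 0.08 in macrophage-like against fibroblast-like cells.

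Depth limits what can be seen. Sums of fibroblast-like, myofibroblast-like and macrophage-like cells held few UMIs, so a count of 0 there does not show that a gene is silent. The WT and 6-week-old values come from 1 mouse each, and mouse, age and genotype cannot be told apart. Names of classes were rebuilt from markers, and shares of cells in a class or cluster were not tested between conditions.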
